A study of Homo sapiens with 6 samples.

Results

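Homologous recombination repairs a broken DNA end by copying the sister chromatid, and the Fanconi pathway uses the same machinery to remove crosslinks between DNA strands. Messenger RNA of 35 genes of these pathways was described here in Hep-G2 cells, a hepatocellular carcinoma line, out of 58735 genes in the deposited table. The 35 genes were taken by symbol alone, from the damage kinases to the nuclease scaffold, and all 35 were found. The study sequenced 3 Hep-G2 libraries carrying a control hairpin (sh-NC) and 3 carrying a hairpin against CLGN (sh-CLGN), a calnexin-like chaperone of the endoplasmic reticulum, to see what follows its depletion. The labels give all 6 libraries the batch 0DAY and name no drug. The hairpins came by lentivirus and the cells were selected with puromycin, in control and knockdown alike. Each group rests on 1 hairpin, so loss of CLGN and other effects of that hairpin or of its selected culture cannot be told apart. Nothing in the sources used here says whether the libraries of a group came from separate cultures, so p-values measure the spread between these samples, which may be technical.

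As background, ATM and ATR are kinases that sense breaks and stalled forks, and they act on CHEK1 and CHEK2. The MRE11-RAD50-NBN complex binds the end, RBBP8 (CtIP), EXO1 and BLM help to resect it, and BRCA1-BARD1, PALB2 and BRCA2 lead to pairing with the intact strand. In the Fanconi pathway a core complex with the ubiquitin-conjugating enzyme UBE2T ubiquitinates FANCD2 and FANCI, and the helicase BRIP1 and the nuclease scaffold SLX4 act downstream. Many of these genes are known to be transcribed mostly in late G1 and S phase of dividing cells.

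Values are FPKM, fragments scaled to gene length and library size, as the authors deposited them. The values fell on whole steps that gave 14955816 to 16244639 reads per library. A difference is sh-CLGN minus sh-NC on the log2(FPKM + 1) scale with its standard error (±), from limma over the 13074 genes that reached 1 FPKM in 3 or more libraries, with p-values adjusted by Benjamini-Hochberg over all of them; this scale understates the change of low genes. Each group has 3 libraries throughout, and a call means an adjusted p of at most 0.05. CLGN itself stood at 24.1, 21.0 and 26.1 FPKM in sh-NC and 9.48, 8.88 and 8.60 FPKM in sh-CLGN, 37.8% of the control, a difference of -1.31 ± 0.081, adjusted p = 8.35e-06. Summed hepatocyte markers (12 genes) ran from 8196 to 8458 FPKM in sh-NC and from 8280 to 8882 FPKM in sh-CLGN. Summed fibroblast markers (10 genes) ran from 7.17 to 8.51 FPKM and from 48.5 to 49.9 FPKM, with POSTN and FAP at 0 in all 6 libraries and most of the sum from COL1A2. Endothelial, leukocyte and bile duct lists were lower in sum (30.6 to 35.3 against 18.0 to 19.6 FPKM, 69.9 to 77.7 against 61.2 to 68.4 FPKM, and 150.7 to 157.7 against 108.3 to 114.0 FPKM), with KDR and MS4A1 at 0 throughout. The leukocyte sum was nearly all LYZ (72.9 ± 3.87 and 64.0 ± 3.63 FPKM in sh-NC and sh-CLGN, SD, n = 3). The bile duct sum fell through SOX9 (93.8 ± 2.07 and 36.9 ± 0.618 FPKM) and EPCAM, whereas KRT19, a main duct marker, rose (37.3 ± 2.48 and 56.9 ± 2.64 FPKM, adjusted p = 9.66e-05). The part of any of these in the results was not tested. In bulk RNA, fewer cells that express a gene and less RNA of it per cell cannot be told apart.

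The members moved in both directions. Of the 35, 33 passed the filter on low values; 9 were higher in sh-CLGN, 11 were lower and 13 were not called. Over all genes tested, 26.7% were called higher and 39.0% lower, against 27.3% and 33.3% of the members, so neither share stood far from the background in this fit. The median difference of the 33 members was -0.10, against -0.077 for all genes tested. No member passed both thresholds (adjusted p at most 0.05 and an absolute difference of at least 1), against 6.28% of all genes; 22 members had an unadjusted p under 0.05 in limma, and with voom on the recovered reads ATM, ATR, BRCA2 and FANCM passed both, as did 13.2% of all genes. In 10 members all 3 sh-CLGN libraries lay above all 3 sh-NC libraries and in 15 they lay below, beside 28.7% and 41.5% of all genes; the 20 called members were all among these 25. The split depended on the scaling. Rescaling to TPM or to the read totals gave 10 higher and 7 lower in each case (30.3% and 21.2% of the members), while the shares of all genes also moved, to 32.8% higher and 30.01% lower with TPM and 37.9% and 26.2% with read totals. These scalings shifted the median of all genes up by 0.11 and 0.16, to 0.032 and 0.083, with the members at 0.014 and 0.069. Removing the trend with GC content gave 7 higher and 15 lower, 21.2% and 45.5% of the members, against 32.8% and 34.2% of all genes in that fit; the difference between these shares was not tested. The 20 called members kept their sign under all 14 alternatives and with each of the 6 libraries left out.

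**Figure D1:**
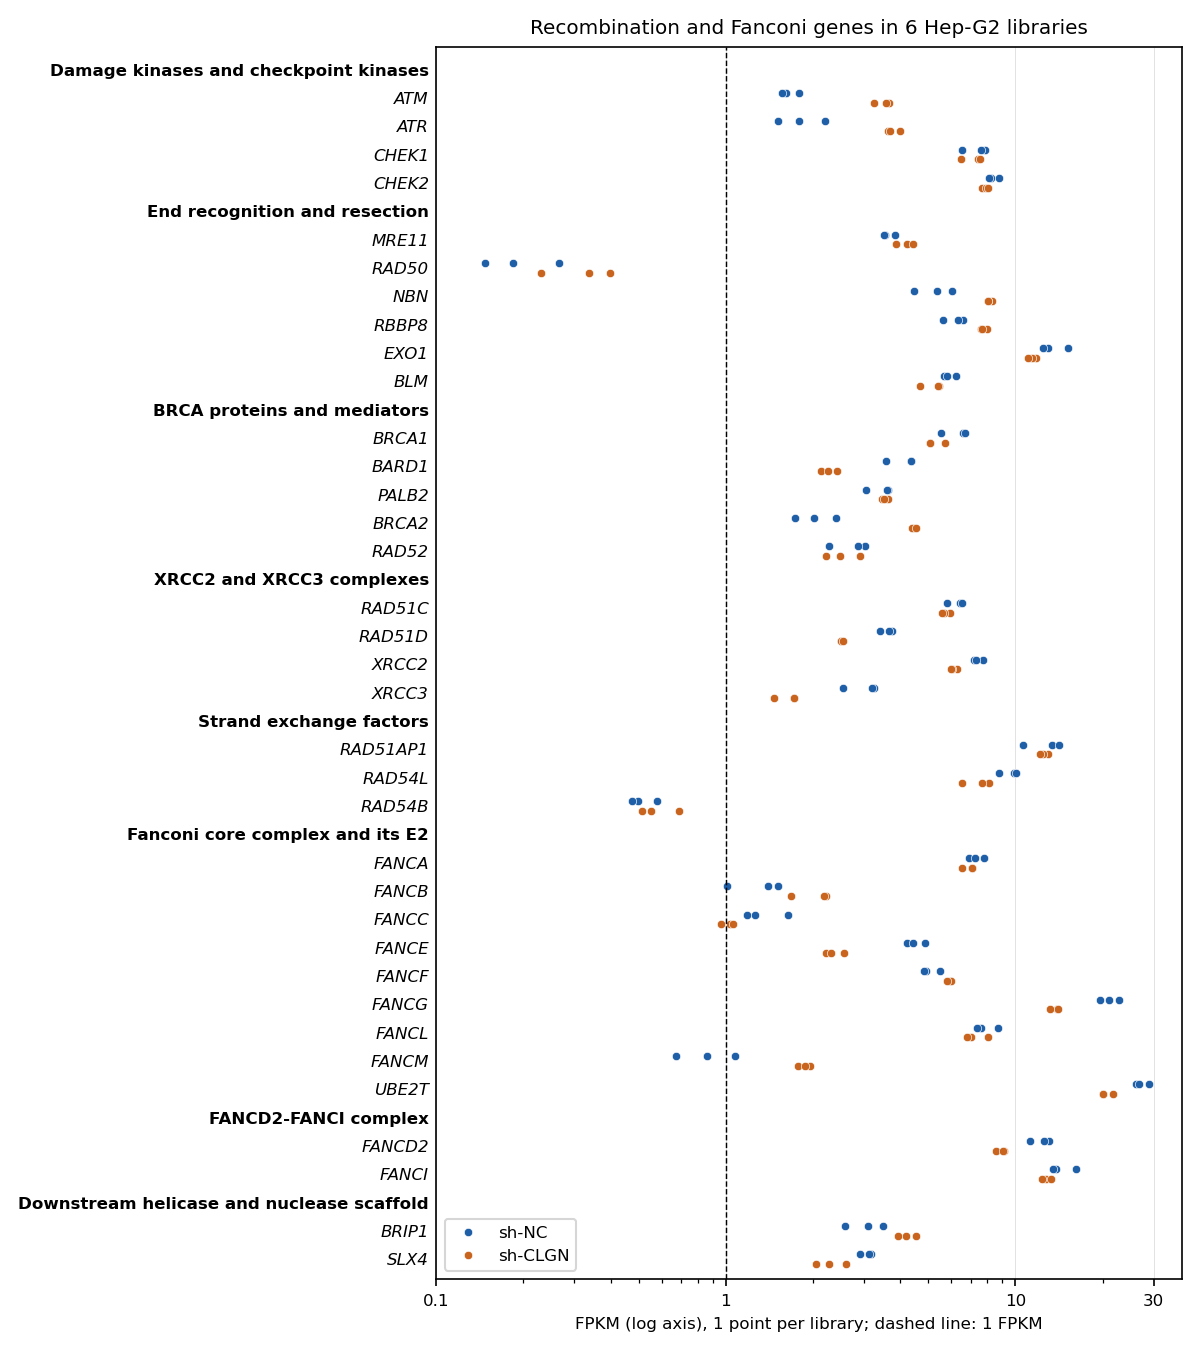
FPKM of the 35 members in each library on a log axis, grouped by role, with sh-NC in blue and sh-CLGN in orange and a dashed line at 1 FPKM. Levels run from RAD50 (mean 0.198 FPKM in sh-NC) to UBE2T (27.2 FPKM); ATM, ATR, BRCA2 and FANCM are separated upwards and BARD1, XRCC3, FANCE and FANCG downwards.

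The damage kinases were about double in sh-CLGN, while the checkpoint kinases they act on did not pass the test. ATM (chr11:108222484-108369102 on GRCh38), the kinase that answers double-strand breaks, stood at 1.61, 1.57 and 1.79 FPKM in sh-NC and 3.26, 3.65 and 3.56 FPKM in sh-CLGN. The sh-CLGN libraries all lay above the control libraries, with a difference of 0.76 ± 0.074, adjusted p = 6.85e-05 and a ratio of mean FPKM of 2.11. ATR (chr3:142449235-142578826), which answers single-stranded DNA at stalled forks, read 1.80, 1.52 and 2.19 FPKM in sh-NC and 3.62, 3.69 and 3.99 FPKM in sh-CLGN. Its groups were also apart, by 0.75 ± 0.097, adjusted p = 2.84e-04, a ratio of 2.05. CHEK1, the kinase downstream of ATR, had overlapping groups at 7.86, 6.55 and 7.62 FPKM in sh-NC and 7.42, 7.54 and 6.46 FPKM in sh-CLGN (-0.034 ± 0.083, adjusted p = 0.735). CHEK2, downstream of ATM, was 8.25, 8.08 and 8.77 FPKM in sh-NC and 7.66, 7.90 and 8.02 FPKM in sh-CLGN, each sh-CLGN value below the control values, and was not called (-0.079 ± 0.055, adjusted p = 0.231). CHEK2 has pseudogene copies between which counting can split reads. Neither checkpoint kinase was called under any alternative or with any library left out, and ATM and ATR were called under all of them.

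Among the genes of end recognition and resection, 2 of the 5 tested were higher, 1 was lower and 2 were not called. NBN, the subunit that brings ATM to the complex, was measured at 5.37, 4.46 and 6.03 FPKM in sh-NC and 8.30, 8.05 and 8.02 FPKM in sh-CLGN. Every sh-CLGN library exceeded every control, by 0.54 ± 0.091, adjusted p = 0.00109, and by 0.35 after GC correction. MRE11, the nuclease of the complex, read 3.53, 3.51 and 3.84 FPKM in sh-NC and 4.21, 4.43 and 3.88 FPKM in sh-CLGN; its groups did not overlap, yet the difference of 0.16 ± 0.068, adjusted p = 0.0704 missed the threshold. It was called higher without sh-NC replicate 3 (adjusted p = 0.0434), with TPM scaling (0.0172), scaling by read totals (0.00550) and voom (0.0470), and after GC correction its difference was -0.0085. RAD50, the third subunit, lay below the filter at 0.183, 0.147 and 0.265 FPKM in sh-NC and 0.229, 0.337 and 0.399 FPKM in sh-CLGN, from 21 to 63 recovered reads, and its groups overlapped. The gene RAD50 shares 90061 bases on the same strand with AC116366.3, listed at no more than 3 reads in any library, so reads in stretches that both hold may have been left out or split in counting, and its low level is uncertain.

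RBBP8, which starts resection together with MRE11, rose from 6.60, 5.61 and 6.35 FPKM to 7.98, 7.63 and 7.66 FPKM (0.29 ± 0.067, adjusted p = 0.00588). The call of RBBP8 was lost when tested against a fold change of 1.2 (adjusted p = 0.652), and GC correction took its difference to 0.17. EXO1, the long-range resection nuclease, fell from 13.0, 12.4 and 15.2 FPKM to 11.8, 11.4 and 11.1 FPKM (-0.22 ± 0.077, adjusted p = 0.0335). Its groups did not overlap, and the call was lost without any 1 of the sh-CLGN replicates (adjusted p = 0.0570, 0.0814 and 0.0937 without replicates 1, 2 and 3), and also with TPM scaling, quantile normalization, scaling by read totals and the looser filters. BLM, the helicase that resects and dissolves junctions, gave 5.67, 5.81 and 6.25 FPKM in sh-NC and 5.45, 5.40 and 4.69 FPKM in sh-CLGN, all below the controls, and was not called (-0.16 ± 0.071, adjusted p = 0.0764). BLM was called lower after GC correction (-0.24, adjusted p = 0.00609) and with voom (0.0491).

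BRCA1 and BARD1 form 1 complex, and so do PALB2 and BRCA2, but within each pair the transcripts differed unequally. BRCA2 (chr13:32315474-32400266), which binds single-stranded DNA and acts after resection, was 2.01, 1.74 and 2.40 FPKM in sh-NC and 4.46, 4.38 and 4.53 FPKM in sh-CLGN. This was the largest rise among the members in this fit, 0.85 ± 0.088, adjusted p = 9.38e-05, a ratio of 2.18, with the 3 sh-CLGN libraries close together. PALB2, which ties BRCA2 to BRCA1, had overlapping groups at 3.64, 3.04 and 3.59 FPKM in sh-NC and 3.45, 3.64 and 3.51 FPKM in sh-CLGN (0.037 ± 0.075, adjusted p = 0.682). BARD1 (chr2:214725646-214809711), the obligate partner of BRCA1 in its ubiquitin ligase, fell from 4.36, 3.58 and 4.37 FPKM to 2.14, 2.41 and 2.26 FPKM. Its difference of -0.64 ± 0.085, adjusted p = 3.22e-04 left 55.3% of the control level, with no overlap between groups, and GC correction took it to -0.82.

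BRCA1 stood at 6.57, 5.52 and 6.68 FPKM in sh-NC and 5.06, 5.05 and 5.70 FPKM in sh-CLGN, with overlapping groups, and just missed the threshold (-0.21 ± 0.082, adjusted p = 0.0534). The call turned on single libraries and on the setting: its adjusted p was 0.0137 without sh-NC replicate 2 and 0.0430 without sh-CLGN replicate 3, and 0.0142 after GC correction. BRCA1 shares 21878 bases on its own strand with AC060780.1, which rose from 0.687, 0.657 and 0.535 FPKM to 2.33, 2.43 and 2.90 FPKM (1.12 ± 0.095, adjusted p = 3.46e-05), and it has a pseudogene copy, so its level is uncertain. RAD52, a second mediator of strand annealing, was 2.28, 3.02 and 2.85 FPKM in sh-NC and 2.21, 2.91 and 2.48 FPKM in sh-CLGN and showed overlap and no call (-0.072 ± 0.11, adjusted p = 0.579).

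The subunits of the XRCC2 and XRCC3 complexes, which assist strand pairing, were lower in 3 of 4 members and higher in none. Over all genes tested, 39.0% were lower and 26.7% higher, and no test compared these 4 members with that share. XRCC3 (chr14:103697609-103715504) fell from 3.24, 3.20 and 2.54 FPKM to 1.46, 1.71 and 1.72 FPKM, a difference of -0.60 ± 0.096, adjusted p = 8.51e-04 that left 54.5% of the control. RAD51D went from 3.42, 3.74 and 3.66 FPKM to 2.50, 2.50 and 2.54 FPKM (-0.39 ± 0.064, adjusted p = 9.76e-04), and XRCC2 from 7.72, 7.17 and 7.28 FPKM to 6.28, 6.02 and 5.998 FPKM (-0.24 ± 0.055, adjusted p = 0.00544). In all 3 the groups were separate. XRCC3 was called under all alternatives, with a difference of -0.30 after GC correction, RAD51D was lost only when tested against a fold change of 1.2, and XRCC2 was also lost with TPM scaling (adjusted p = 0.0766) and scaling by read totals (0.289). RAD51C, present in both complexes, had overlapping groups at 6.41, 5.78 and 6.52 FPKM in sh-NC and 5.94, 5.68 and 5.57 FPKM in sh-CLGN (-0.10 ± 0.063, adjusted p = 0.180), and after GC correction it was called lower (-0.15, adjusted p = 0.0285). RAD51D shares 29286 bases of its own strand with the readthrough gene RAD51L3-RFFL, listed at 0 in all libraries.

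Of the strand exchange factors, RAD54L was lower, RAD51AP1 was not called and RAD54B was below the filter. RAD54L, a motor protein that drives strand exchange, read 9.91, 10.1 and 8.77 FPKM in sh-NC and 6.51, 8.13 and 7.67 FPKM in sh-CLGN (-0.33 ± 0.087, adjusted p = 0.0106), without overlap. This call was lost after GC correction (-0.13, adjusted p = 0.166), TPM scaling, quantile normalization and scaling by read totals. RAD51AP1, which helps to pair strands, was 13.3, 10.7 and 14.1 FPKM in sh-NC and 12.9, 12.4 and 12.2 FPKM in sh-CLGN, overlapping, at -0.014 ± 0.095, adjusted p = 0.907. Its GC-corrected difference was -0.25 (adjusted p = 0.0127). RAD54B stood at 0.499, 0.580 and 0.474 FPKM in sh-NC and 0.688, 0.551 and 0.513 FPKM in sh-CLGN, from 37 to 62 reads, and shares 64783 bases on its strand with FSBP, so its level is uncertain too.

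Within the Fanconi core complex and its conjugating enzyme, 3 of 9 genes were higher, 3 were lower and 3 were not called. FANCE (chr6:35452356-35467103), the subunit that bridges the complex to FANCD2, fell from 4.21, 4.86 and 4.44 FPKM to 2.21, 2.56 and 2.30 FPKM. The difference of -0.71 ± 0.076, adjusted p = 1.01e-04 was the largest fall among the members in this fit and left 52.4% of the control. FANCG (chr9:35073835-35080016), a scaffold subunit next to FANCA, went from 21.1, 22.8 and 19.6 FPKM to 14.0, 13.1 and 14.0 FPKM (-0.59 ± 0.065, adjusted p = 1.20e-04). UBE2T, the enzyme that delivers ubiquitin, fell from 26.2, 26.6 and 28.9 FPKM to 21.8, 20.1 and 20.1 FPKM (-0.38 ± 0.058, adjusted p = 6.76e-04). None of these 3 had overlapping groups. GC correction took FANCE to -0.47 and FANCG to -0.35. UBE2T alone lost its call, with quantile normalization (adjusted p = 0.118) and when tested against a fold change of 1.2.

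FANCM (chr14:45135940-45200890), the translocase that anchors the complex to DNA, rose from 0.863, 0.671 and 1.08 FPKM to 1.78, 1.95 and 1.88 FPKM. It differed by 0.62 ± 0.10, adjusted p = 0.00100, a ratio of mean FPKM of 2.14, from 83 to 270 reads. Of its sh-NC libraries only replicate 3 reached 1 FPKM, so FANCM passed the filter through sh-CLGN, the group where it was high. Its call was also made without the filter. FANCB, the X-linked partner of the ligase subunit FANCL, was 1.52, 1.01 and 1.40 FPKM in sh-NC and 2.21, 1.68 and 2.19 FPKM in sh-CLGN, separate by 0.39 ± 0.12, adjusted p = 0.0191. That call rested on 53 to 135 reads and was lost without sh-NC replicate 2 (adjusted p = 0.0553), sh-CLGN replicate 1 (0.0663) or sh-CLGN replicate 3 (0.0629), and after GC correction (0.226) or quantile normalization (0.0881). FANCF, an adaptor subunit, read 4.90, 4.85 and 5.50 FPKM in sh-NC and 5.95, 5.99 and 5.81 FPKM in sh-CLGN (0.19 ± 0.063, adjusted p = 0.0292). It lost its call without sh-NC replicate 1 or 2 (0.0853 and 0.0854) and without sh-CLGN replicate 1, 2 or 3 (0.0795, 0.0916 and 0.0598), and with voom (0.0630).

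The remaining core subunits did not pass the test. FANCA averaged 7.34 ± 0.451 and 6.89 ± 0.316 FPKM (SD, n = 3) in sh-NC and sh-CLGN, FANCL, the ligase itself, 7.88 ± 0.726 and 7.29 ± 0.686 FPKM, and FANCC 1.36 ± 0.247 and 1.02 ± 0.0484 FPKM. Groups overlapped for FANCA and FANCL, whereas all sh-CLGN values of FANCC lay below the control values (-0.22 ± 0.10, adjusted p = 0.0862). FANCC was called lower with voom (difference -0.41, adjusted p = 0.00677), quantile normalization, an untrended limma fit and protein-coding genes alone, but GC correction took it to -0.056 (adjusted p = 0.622). FANCL was called lower after GC correction (-0.24, adjusted p = 0.00935).

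FANCD2, the clamp subunit that carries the Fanconi signal, was lower, and its partner FANCI was not called. FANCD2 (chr3:10026414-10101930) fell from 11.2, 13.1 and 12.6 FPKM to 8.60, 9.12 and 9.09 FPKM, a difference of -0.42 ± 0.066, adjusted p = 7.68e-04, and -0.42 after GC correction. The call was lost only when tested against a fold change of 1.2 (adjusted p = 0.0649). Its pseudogene copies can take part of its reads. FANCI read 13.8, 13.5 and 16.1 FPKM in sh-NC and 12.8, 12.3 and 13.2 FPKM in sh-CLGN, with all sh-CLGN values below the controls, and missed the threshold (-0.16 ± 0.073, adjusted p = 0.0814). After GC correction FANCI was called lower (-0.18, adjusted p = 0.0248). Downstream, BRIP1, a helicase that binds BRCA1, rose from 3.09, 2.58 and 3.48 FPKM to 3.92, 4.54 and 4.18 FPKM (0.37 ± 0.095, adjusted p = 0.00951), and SLX4, the scaffold of the unhooking nucleases, fell from 3.17, 3.12 and 2.90 FPKM to 2.04, 2.27 and 2.60 FPKM (-0.30 ± 0.082, adjusted p = 0.0122). Neither group pair overlapped, and both calls were lost after GC correction (adjusted p = 0.0622 and 0.445). The call of SLX4 was also lost with TPM scaling and scaling by read totals.

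**Figure D2:**
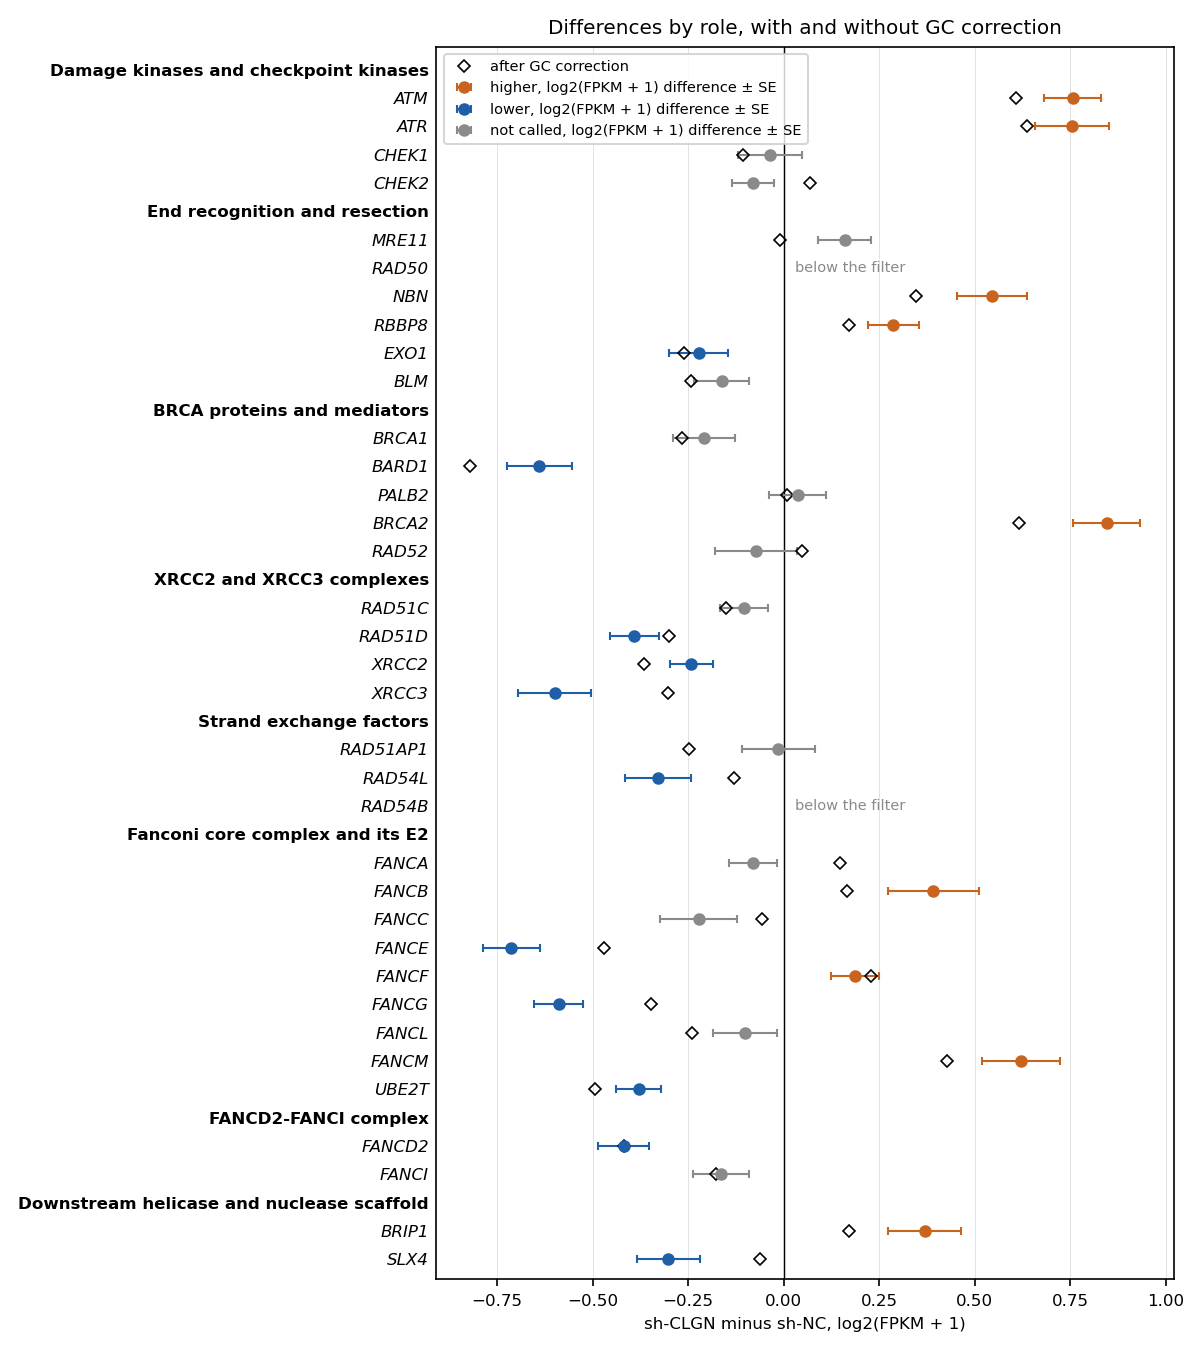
Difference between sh-CLGN and sh-NC (log2(FPKM + 1), points with standard error) for the 33 tested members by role, coloured by call, with open diamonds for the difference after GC correction. With the correction ATM, ATR, BRCA2 and FANCM lie between 0.43 and 0.64 and BARD1, XRCC3, FANCE and FANCG between -0.82 and -0.30; RAD54L, FANCB, BRIP1 and SLX4 move towards 0 and lose their call.

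Several members work as partners, and the FPKM ratio of 9 member pairs was taken in each library. The pairs were chosen with these values known, so the ratios are a description with no test. BRCA1 to BARD1 was 1.51, 1.54 and 1.53 in sh-NC against 2.37, 2.09 and 2.53 in sh-CLGN. BRCA2 to PALB2 was 0.552, 0.570 and 0.667 in sh-NC against 1.29, 1.204 and 1.29 in sh-CLGN, so the BRCA2 transcript went from the scarcer to the more abundant of the pair. The mean of FANCD2 to FANCI went from 0.855 to 0.6996, MRE11 to NBN from 0.694 to 0.514 and RAD51D to XRCC2 from 0.489 to 0.412. RAD51C to XRCC3 went up from 2.12 to 3.54, and FANCL to UBE2T from 0.289 to 0.353. For the kinases and their targets, ATM to CHEK2 was 0.195, 0.194 and 0.204 in sh-NC against 0.425, 0.462 and 0.444 in sh-CLGN, and ATR to CHEK1 0.228, 0.232 and 0.288 in sh-NC against 0.488, 0.489 and 0.618 in sh-CLGN. In 6 pairs all sh-CLGN ratios lay above the control ratios and in 3 they lay below, a direction set by which gene is divided by which. No share over other gene pairs was taken. Among all single genes tested, 28.7% were separated upwards and 41.5% downwards. The ratios were not GC-corrected.

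**Figure D3:**
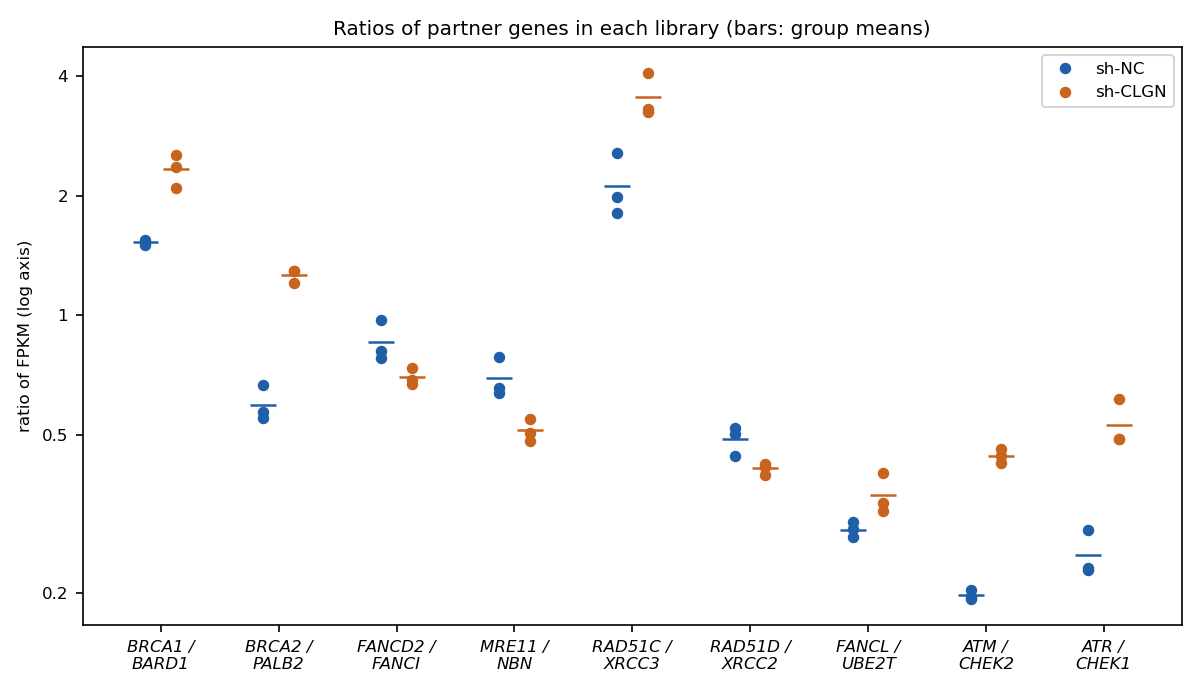
Ratio of the FPKM of 2 partner genes in each library on a log axis, sh-NC in blue and sh-CLGN in orange, with bars at the group means. The 2 groups do not overlap in any of the 9 pairs, which were chosen with these values known. The widest steps are ATM to CHEK2, ATR to CHEK1 and BRCA2 to PALB2.

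The members that rose were mostly low in GC and the members that fell were spread over the range. The longest transcripts of the 9 higher members held 36.3% to 45.4% GC (median 37.7%), those of the 11 lower members 38.0% to 63.8% (median 47.1%) and those of the 13 uncalled members 36.1% to 55.4% (median 42.2%). Of the 11 members under 40% GC, 6 were higher and 2 lower, with a median difference of 0.37, while of the 2082 tested genes in that class 45.8% were higher and 16.4% lower, with a median of 0.19. Of the 7 members at 50% or more, 5 were lower and none higher, with a median of -0.33, against 51.5% lower and 17.2% higher and a median of -0.24 for 5751 genes. Spearman's rho of the difference with GC content, taken over genes and not over replicates, was -0.64 over the 33 members and -0.32 over 13068 genes, and the points share libraries and base composition. After the GC trend was removed per library, rho over the members was -0.33. In that fit ATM, ATR, NBN, RBBP8, BRCA2, FANCF and FANCM were still called higher and EXO1, BARD1, RAD51D, XRCC2, XRCC3, FANCE, FANCG, UBE2T and FANCD2 still lower, 16 of the 20. BARD1 (38.0% GC) and XRCC2 (39.8%) were the lower members under 40% GC and UBE2T (40.1%) lay just above, and each of these 3 differed more after the correction. The higher members also had the longer transcripts, with a median of 6048 bases against 3668 bases in the lower ones, and a lower control level, with a median of 2.05 FPKM against 7.39 FPKM. The part of GC content, length and level in the calls was not tested.

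**Figure D4:**
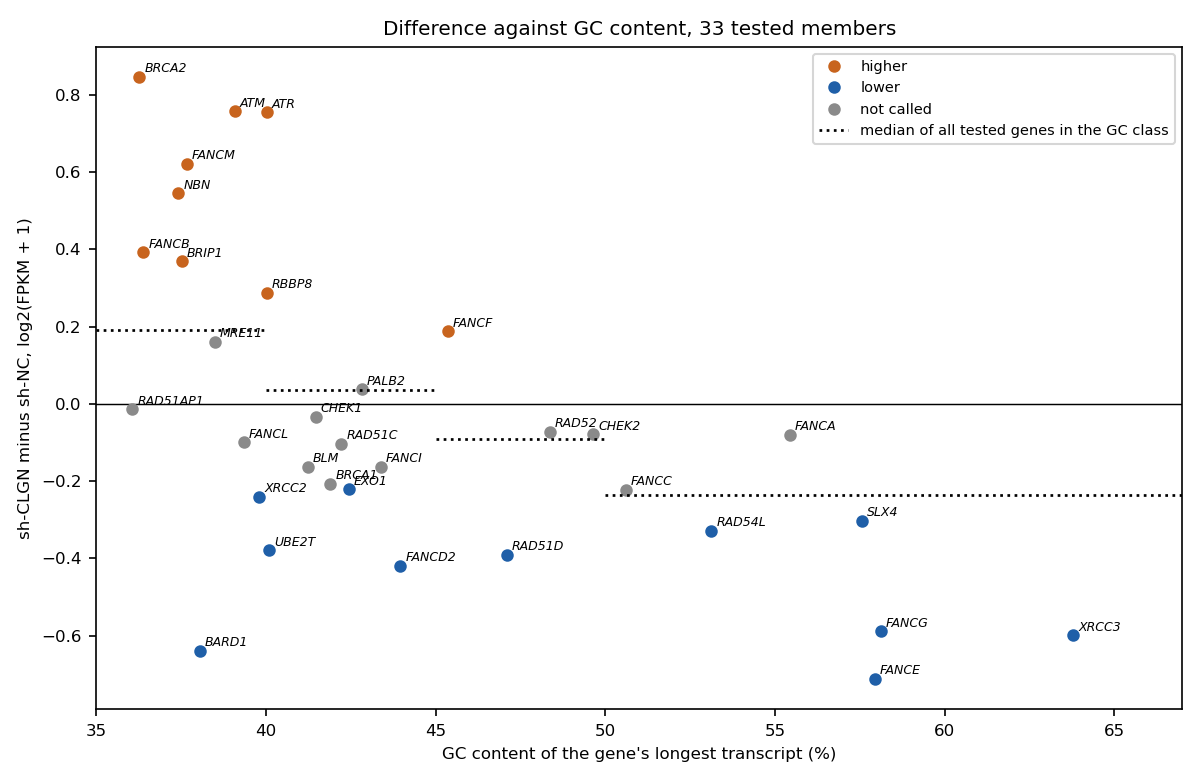
Difference between sh-CLGN and sh-NC (log2(FPKM + 1)) of the 33 tested members against the GC content of the longest transcript, coloured by call, with dotted lines at the median of all tested genes in each of 4 GC classes. Of the 11 members below 40% GC, 6 were called higher; BARD1, XRCC2 and UBE2T are the low-GC genes that fell.

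Genes of S phase often carry E2F sites at their start, so the promoters of the members were searched. RefSeq windows of 300 bases (250 before to 50 after the start, GRCh38.p14) matched 32 of the 35 members (43 windows), all but NBN, RAD54B and FANCI. At least 1 of the E2F words TTTCCCGC, TTTGGCGC, TTTGCCGC and TTTCGCGC, on either strand, was found in 5 of them (15.6%): EXO1, XRCC2, FANCA, FANCC and FANCD2. The share was 6.66% among 9073 tested genes with a window. Counted per window, it was 5 of the 43 member windows (11.6%) and 3.31% of all 35116 windows. EXO1, XRCC2 and FANCD2 were lower and FANCA and FANCC were not called. The other lower members, BARD1, RAD51D, XRCC3, RAD54L, FANCE, FANCG, UBE2T and SLX4, held no word. None of the higher members with a window held one either. The windows of EXO1, XRCC2 and FANCD2 are shown because they carry the words, in capitals as they read on the gene's strand. That of BRCA2, which rose, is shown as an example without a word.
EXO1, chr1:241847954-241848253, plus strand: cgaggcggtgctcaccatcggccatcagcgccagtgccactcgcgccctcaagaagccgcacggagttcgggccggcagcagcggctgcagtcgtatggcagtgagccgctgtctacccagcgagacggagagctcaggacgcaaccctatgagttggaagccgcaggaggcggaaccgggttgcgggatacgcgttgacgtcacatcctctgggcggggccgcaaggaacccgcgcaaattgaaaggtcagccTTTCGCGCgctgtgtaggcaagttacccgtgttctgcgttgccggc
XRCC2, chr7:152676092-152676391, minus strand: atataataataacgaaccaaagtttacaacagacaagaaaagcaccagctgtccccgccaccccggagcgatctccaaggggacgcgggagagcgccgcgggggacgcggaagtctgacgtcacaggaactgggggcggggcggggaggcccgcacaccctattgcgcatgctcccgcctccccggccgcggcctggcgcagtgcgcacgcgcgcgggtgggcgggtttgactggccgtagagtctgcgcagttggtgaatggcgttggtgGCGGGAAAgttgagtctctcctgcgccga
FANCD2, chr3:10026187-10026486, plus strand: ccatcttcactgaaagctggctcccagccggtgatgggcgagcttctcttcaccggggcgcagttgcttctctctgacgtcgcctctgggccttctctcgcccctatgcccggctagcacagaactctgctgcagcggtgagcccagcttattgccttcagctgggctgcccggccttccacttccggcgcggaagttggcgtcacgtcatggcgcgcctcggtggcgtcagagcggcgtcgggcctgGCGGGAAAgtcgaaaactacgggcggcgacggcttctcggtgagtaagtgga
BRCA2, chr13:32315258-32315557, plus strand: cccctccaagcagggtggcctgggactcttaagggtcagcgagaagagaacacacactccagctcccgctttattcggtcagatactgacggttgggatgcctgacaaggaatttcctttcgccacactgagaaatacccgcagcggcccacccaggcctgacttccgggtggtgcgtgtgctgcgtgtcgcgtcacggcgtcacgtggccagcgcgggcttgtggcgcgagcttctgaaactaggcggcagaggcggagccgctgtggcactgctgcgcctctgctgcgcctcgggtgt
The words in XRCC2 and FANCD2 lie on the opposite strand and close to the start, as GCGGGAAA. The CHR element TTTGAA of late cell cycle genes, searched on both strands, was in 4 of 32 members (ATM, FANCC, UBE2T and BRIP1; 12.5% against 13.7% of tested genes), and CCAAT, likewise searched, in 15 of 32 (46.9% against 43.4%). No word searched contains another, a match is not a bound site, and no match says nothing of the factor.

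The hairpin against CLGN has a guide strand whose positions 2 to 8 pair with the heptamer TACCACA, and such sites in 3′ UTRs of the members were listed as a sequence feature. TACCACA was found in 3 of the 33 tested members, BARD1, BRCA2 and RAD51D (9.09%, against 10.9% of 10907 genes with an annotated 3′ UTR). The sites, from GENCODE 29 transcripts with the heptamer in capitals, are shown because 2 of these genes fell and 1 rose.
BARD1: ttctttttTACCACAaatcatta
RAD51D: gccagctgTACCACAgctagtgc
BRCA2: tttaaactTACCACAaaagcaga
The offset heptamers ATACCAC and ACCACAA overlap TACCACA by all but 1 base, and any of the 3 was in 9 members (27.3%, against 21.9% of genes): 1 of those was called higher and 3 lower. The median difference was -0.079 for the 9 and -0.10 for the other 24 members. The part of these sites in any change was not tested.

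Genes next to the members bear on how their reads were counted and on shared starts. Of 20 members with another gene starting on the opposite strand within 1000 bases, 13 pairs had both genes tested, and 4 were called in the same direction and 1 in opposite directions. No share over the divergent pairs of other genes was taken, so these counts have no background beside them. NPAT, which starts 158 bases from ATM, rose by 0.34 ± 0.089, a call that was lost after GC correction (adjusted p = 0.101), as was that of FANCB. MOSPD2 beside FANCB rose by 1.12 ± 0.072, from 1.58, 1.70 and 1.91 FPKM to 4.97, 5.11 and 4.74 FPKM, more than FANCB itself. GAS2 beside FANCF rose by 0.54 ± 0.11 and FKBP3 beside FANCM by 0.39 ± 0.069. FANCD2 fell while CIDECP, 49 bases away, was higher by 0.21 ± 0.061. Several uncalled members had neighbours that were called, in both directions. Lower were HSCB beside CHEK2 (-0.54 ± 0.085, adjusted p = 8.00e-04), DCTN5 beside PALB2 (-0.37 ± 0.057, adjusted p = 6.99e-04) and C12orf4 beside RAD51AP1 (-0.33 ± 0.067, adjusted p = 0.00290). Higher were NBR1 beside BRCA1 (0.14 ± 0.049, adjusted p = 0.0325) and ERC1 beside RAD52 (0.20 ± 0.072, adjusted p = 0.0413). Whether the libraries were counted by strand is not given in the sources used here. Reads in the stretches that ATM shares with NPAT (159 bases) and FANCF with GAS2 (333 bases) therefore cannot be told apart. The same limit holds for other opposite-strand overlaps with tested genes. The longest were BRCA1 with NBR2 (28062 bases), RAD54L with LRRC41 (17278), XRCC3 with KLC1 (16641) and FANCI with POLG (12064). Shorter ones included FANCA with ZNF276 (3355), NBN with DECR1 (1824), FANCL with VRK2 (678) and CHEK2 with HSCB (392). LRRC41 was itself called lower (-0.28 ± 0.075, adjusted p = 0.0122), as was RAD54L.

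Beyond the members, 50 other genes of the same pathways were listed, of which 45 were tested; 6 were higher and 18 lower, with a median difference of -0.14. The higher share (13.3%) was under the 26.7% of all genes, and the lower share (18 of 45) was near the 39.0%. The 6 became 3 without sh-NC replicate 2, sh-CLGN replicate 2 or sh-CLGN replicate 3, and 14 with scaling by read totals, where 37.9% of all genes were higher. GC correction gave 6 higher and 17 lower. The 5 genes with the smallest adjusted p were all lower. MAD2L2 (REV7), which limits resection and serves translesion synthesis, was 18.9, 15.1 and 15.7 FPKM in sh-NC and 6.53, 5.45 and 5.79 FPKM in sh-CLGN (-1.34 ± 0.094, adjusted p = 1.45e-05). H2AFX, the histone that ATM phosphorylates at breaks, was 121, 114 and 94.9 FPKM in sh-NC and 51.1, 48.1 and 50.6 FPKM in sh-CLGN (-1.12 ± 0.086, adjusted p = 2.23e-05). TOP3A, the topoisomerase that works with BLM, averaged 18.0 ± 0.828 and 9.75 ± 0.714 FPKM (SD, n = 3) in the 2 groups, ERCC1, the partner of the unhooking nuclease XPF, 7.27 ± 0.450 and 4.34 ± 0.0476 FPKM, and CENPX, a FANCM partner, 26.9 ± 1.15 and 20.0 ± 0.632 FPKM. The call of CENPX was lost after GC correction (adjusted p = 0.117).

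DNA replication and G1/S genes moved mostly one way, mitosis and spindle genes less so. Of 42 tested DNA replication and G1/S genes, 32 were lower (76.2%) and 1 was higher, with a median of -0.41, and the 5 with the smallest adjusted p were GINS2, E2F2, GINS1, CDC45 and CCNE1. After GC correction 31 were lower and 2 higher. E2F2, an activator of S phase genes, went from 7.79, 8.13 and 7.33 FPKM to 1.62, 2.17 and 2.09 FPKM (-1.57 ± 0.087, adjusted p = 5.58e-06). Of 33 mitosis and spindle genes, 18 were lower (54.5%) and 7 higher (21.2%), with a median of -0.22. Over all genes tested the shares were 39.0% lower and 26.7% higher. The 5 mitosis genes with the smallest adjusted p, all lower, were AURKA, TPX2, FOXM1, CCNB1 and CDC25C. The 7 higher were CENPF, HMMR, ANLN, TOP2A, CENPE, CDK1 and ECT2. Beside the falls in these lists 11 members were lower and 9 higher, and the part of those falls in any member's call was not tested. No test compared the lists with each other.

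Other repair pathways were mixed as well. End joining and 53BP1 genes gave 6 higher and 6 lower of 18. XRCC4, the scaffold of the end joining ligase, rose from 1.82, 1.38 and 1.59 FPKM to 6.45, 5.81 and 5.90 FPKM (1.44 ± 0.083, adjusted p = 6.07e-06) and LIG4, that ligase, from 1.13, 1.06 and 1.61 FPKM to 3.51, 3.66 and 3.36 FPKM (1.00 ± 0.10, adjusted p = 8.45e-05). PARP1, a break sensor, was at -0.82 ± 0.048, XRCC6 (Ku70) at -0.42 ± 0.052 and TP53BP1 at 0.47 ± 0.064. Mismatch repair had 4 higher and 2 lower of 7, with PMS1 up by 0.88 ± 0.090 and MSH6 at -0.35 ± 0.049. Nucleotide excision repair had 3 higher and 6 lower of 15, with GTF2H3 up by 0.85 ± 0.096 and XPA at -0.49 ± 0.056. Base excision repair had 2 higher and 10 lower of 16 (median -0.35), with TDG at -0.82 ± 0.051 and PARP2 up by 0.46 ± 0.048; GC correction gave 4 higher and 6 lower.

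**Figure D5:**
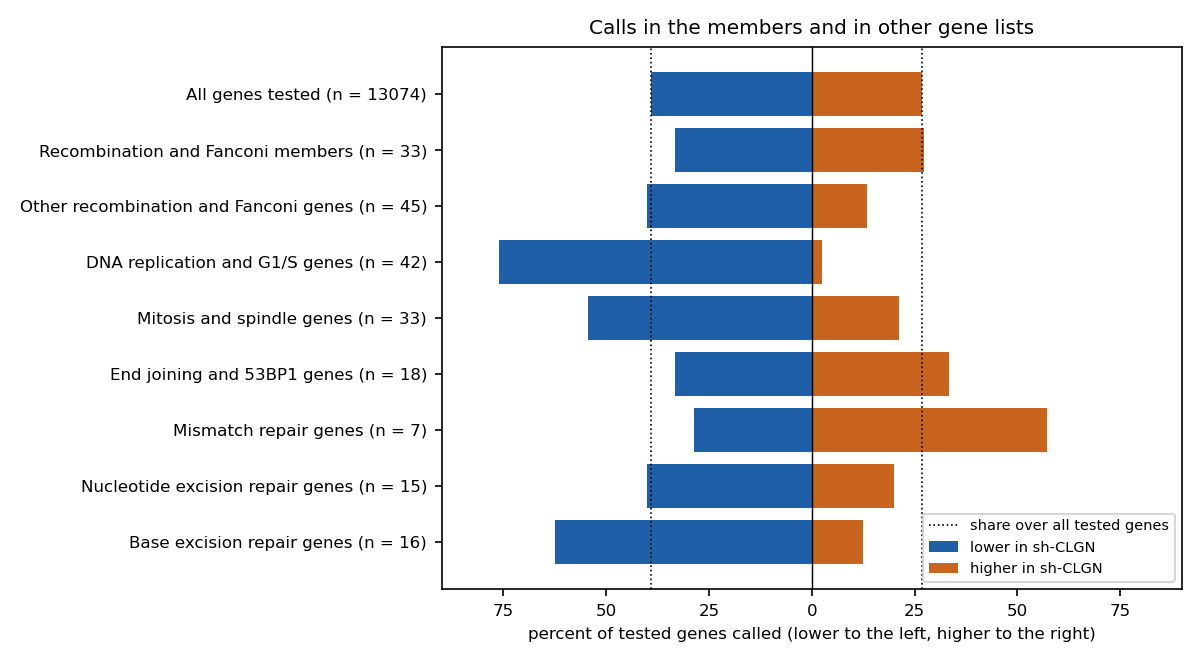
Percent of tested genes called lower (blue, to the left) and higher (orange, to the right) in sh-CLGN for all genes, the members, other genes of the pathway and 6 comparison lists, with dotted lines at the shares over all genes. The members, at 33.3% lower and 27.3% higher, sit near the dotted lines, and the DNA replication list reaches 76.2% lower.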

How the data were processed

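Total RNA of 6 Hep-G2 libraries (3 sh-NC, 3 sh-CLGN) was prepared with a NEBNext Ultra kit. The submitters' processing notes name HISAT2 2.0.5, featureCounts and GRCh38, and all 58735 gene positions equal GENCODE 29. The authors deposited 1 table of FPKM per gene, with no counts beside it. Multiplied by gene length, 100% of values came out as whole reads within 0.01 reads. The library size behind the FPKM was 0.933 to 0.953 times the reads in sh-NC and 1.07 to 1.08 times in sh-CLGN, so the deposited FPKM were not scaled by these read totals alone. Read numbers per gene limit the precision of low values.

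Values were taken as log2(FPKM + 1), a pseudocount of 1, for genes that reached 1 FPKM in 3 or more libraries, and tested two-sided with limma 3.58.1 in R 4.3.3 (eBayes with trend, Benjamini-Hochberg over 13074 genes). The steps were tested on simulated data. Alternatives changed the pseudocount, filter, gene set, scaling, test, GC content (lowess per library on the longest transcript, span 0.3), replicate block and each library. All 35 members are named, with CLGN, the 5 genes of each other list with the smallest adjusted p, and tested neighbours. Others named for a neighbour, a low level or a rise within their list were chosen after their values were seen. Members and lists were chosen with earlier results of these data known. Seed heptamers were taken from the hairpin target that the study's methods give. No sample group was left out; 1 other pathway gene is not reported here.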

Additional observations from a re-analysis of the deposited data

How the results depend on the processing

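Each count was recomputed under 14 alternatives and with each library left out. Members called lower numbered 11, and 7 with TPM scaling, 7 with scaling by read totals and 4 when tested against a fold change of 1.2; those called higher numbered 9, and 5 in that last test. Over all genes the lower share fell too, from 39.0% to 30.01%, 26.2% and 20.2% in these 3 settings, and the higher share went from 26.7% to 13.3% in the last. Members past both thresholds numbered 0, and 4 each with a pseudocount of 0.1, TPM scaling and voom on recovered reads, where 12.3%, 10.9% and 13.2% of all genes passed in place of 6.28%. Of the other pathway genes, 6 were higher, and 14 with scaling by read totals and 0 against a fold change of 1.2, where 10 were lower in place of 18; leaving out 1 library gave 3 to 6 higher and 16 to 20 lower. For the members, leaving out 1 library gave 7 to 10 higher and 10 to 12 lower. Their median difference, -0.10, was 0.069 with scaling by read totals. ATM, ATR, NBN, BRCA2 and FANCM kept their call as higher and BARD1, XRCC3, FANCE and FANCG as lower under every alternative and every library left out; CHEK1, CHEK2, PALB2, RAD52 and FANCA stayed uncalled. No result changed sign among those called. Same-numbered libraries did not deviate together (correlations -0.018, -0.046 and -0.15). Whether equal numbers mark pairs is not given in the sources used here, and these correlations cannot settle it. With a replicate block 8 members were higher and 11 lower. In that fit EXO1 (adjusted p = 0.0592) and FANCF (0.0663) lost their call and BRCA1 gained one (0.0485). CLGN stayed called throughout, at -1.12 to -1.44. Where these alternatives differ, the cause was not tested. Members under 100 reads in a library, such as FANCB and FANCM, are limited by depth. FANCM also passed the main filter only through sh-CLGN, the group where it was high.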
